A study of Mus musculus with 12 samples.

Results

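The core spliceosome genes described here are the protein-coding genes named Snrp, Lsm with a number, Sf3a or Sf3b with a number, and Prpf with a number. They were picked by symbol and biotype in the annotated gene list of the series and joined by Ensembl identifier to the table of counts. The rule gave 47 of the 55573 genes counted, and all 47 were among the 17126 genes with enough counts to be tested. 3 further genes with matching symbols, Snrp1c-ps1, Snrp1c-ps2 and Snrpert, are processed pseudogenes and were left out. By what their proteins do, the members fall into 18 subunits of the small rings (8 Sm, 8 LSm, and the U7 subunits Lsm10 and Lsm11), 22 SF3 and PRPF factors (3 SF3A, 6 SF3B and 13 PRPF) and 7 others.

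The data are RIP-seq, sequencing of RNA recovered by immunoprecipitation of a protein, from hippocampal neurons of newborn pups of the inbred strain C57BL/6, grown as primary cultures and kept for 14 days in culture with Ara-C to hold back glia. Endogenous YTHDF1, YTHDF2 or YTHDF3 was pulled down from lysate with an antibody to each protein, and the bound RNA was sequenced beside RNA of the lysate (Input). The 4 groups (Input and a RIP for each reader) had 3 replicates each. By the study's methods, each replicate was a pool of wells of neurons whose lysate was shared among the 3 RIPs and had 1 common Input, so the RIPs of a replicate are not independent cultures. Enrichment is relative to Input, since a pull-down with a control antibody was not analysed here. The samples are bulk RNA, so a change in the share of a cell type and a change in RNA per cell cannot be told apart.

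The spliceosome cuts introns out of pre-mRNA and is built from small nuclear RNAs (U1, U2, U4, U5, U6) and proteins. Small Sm proteins close into a ring around each of U1, U2, U4 and U5, and related LSm proteins form the ring of U6, while a cytoplasmic LSm ring that holds Lsm1 in place of Lsm8 takes part in mRNA decapping. The SF3 complexes are part of the U2 particle and hold the branch point, and PRPF proteins build, remodel and activate the U4/U6.U5 tri-snRNP and the catalytic core. YTHDF1, YTHDF2 and YTHDF3 are cytoplasmic readers of N6-methyladenosine (m6A), a methylated base that is common in long mRNAs and near stop codons. The comparison concerns the mRNAs that encode the splicing machinery, not the machinery itself.

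Among the Sm genes, Snrpb and Snrpn are the pair whose values are easiest to confuse. Snrpb (chr2:130171414-130179403, minus strand, GRCm38) encodes SmB, and Snrpn (chr7:59982495-60140219, minus strand), in an imprinted locus expressed mainly in brain, encodes its close relative SmN. Their coding sequences of 696 and 723 bases were 80.5% identical over 696 aligned bases in the GENCODE M21 transcripts, and the longest run without a difference was 32 bases. The first lines give 30 bases of that run, and the next lines a window with 10 differences. Both windows start at the same base of each coding sequence, counted from 1 at the start codon (133 for the shared run and 172 for the window), and capitals mark the bases that differ.
Snrpb, shared run: tgtgatgagttcaggaagatcaagccaaag
Snrpn, shared run: tgtgatgagttcaggaagatcaagccaaag
Snrpb, differing window: caAGcagaaAgGgaagaGaaGcgAgtCCtT
Snrpn, differing window: caGCcagaaCgTgaagaAaaAcgGgtTTtG
A further limit applies to Snrpn, since 27.3% of its exonic bases are shared with Snurf and Gm38393 on the same strand and a read there was counted for each gene.

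Total counts per library ranged from 6020072 (YTHDF2 RIP replicate 2) to 38909592 (YTHDF1 RIP replicate 3), and the 47 members took 0.212 to 0.31% of them. The 8 neuron markers were all detected in every library, with summed levels of 2210 to 6290 CPM. CPM of markers are counts divided by the library's unscaled total and multiplied by 1000000, and CPM of members, given below, use the library's scaled total. Astrocyte markers varied within the groups (255 to 2590 CPM in Input, 222 to 2110 CPM in the YTHDF3 RIP), as did oligodendrocyte markers (9.3 to 378 CPM over all libraries), and microglia markers summed to at most 4.37 CPM. Replicate 1 was lowest in astrocyte markers in all 4 groups, and replicate 3 was highest in Input and in the YTHDF3 RIP. The part of these differences in the results below was not tested.

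A gene was called enriched or depleted where the RIP differed from Input by a log2 ratio of at least 0.32 in size with an adjusted p of at most 0.05 in edgeR's quasi-likelihood test, adjusted over all 17126 genes by the Benjamini-Hochberg method. Log2 ratios below are those of the fit, with their standard errors. In the YTHDF1 RIP, 9 of the 47 members were enriched and 23 were depleted, against 27.2% and 25.8% of all genes tested and 29.8% and 23.1% of the 13508 protein-coding genes. In the YTHDF2 RIP, 10 were enriched and 15 depleted (15.7% and 19.0% of all genes, 17.7% and 16.8% of protein-coding genes). In the YTHDF3 RIP, 7 were enriched and 26 depleted (16.4% and 23.0% of all genes, 19.1% and 19.4% of protein-coding genes). Of the 90 calls, 71 were kept when each of the 12 libraries was left out in turn.

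No ring subunit was enriched in any RIP, at an unadjusted p below 0.05 either, and DESeq2 also called 0. Of the 18, 14, 8 and 17 were depleted with YTHDF1, YTHDF2 and YTHDF3 (77.8%, 44.4% and 94.4%), with median log2 ratios of -1.56, -1.03 and -1.68. Of the 22 SF3 and PRPF factors, 9, 10 and 7 were enriched in the YTHDF1, YTHDF2 and YTHDF3 RIPs (40.9%, 45.5% and 31.8%), and 5, 4 and 6 were depleted. The median log2 ratio of the factors was 0.21, 0.27 and 0.29, where all genes tested had 0.02, 0.02 and 0.05, but the YTHDF1 value turned to -0.21 when scaled by library size alone, to -0.04 with TMM factors over protein-coding genes, and to -0.01 without YTHDF1 RIP replicate 2. Scaling by library size alone moved the median of all genes by -0.40, 0.07 and 0.33 in the 3 RIPs, and protein-coding TMM factors moved it by -0.24, -0.11 and -0.04. The share of enriched genes among all calls was then 33.2%, 48.8% and 61.4% by library size and 40%, 36.7% and 39% by protein-coding TMM, against 51.4%, 45.3% and 41.7%.

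Across the 3 RIPs, 11 of the 47 members were depleted in every one and 5 were enriched in every one, against 13.8% and 8.45% of all genes tested. Those enriched throughout were Prpf4, Prpf4b, Prpf8, Sf3b1 and Sf3b3. Those depleted throughout were Lsm1, Lsm3, Snrpb, Snrpd3, Snrpe, Snrpg, Snrpb2, Snrpc, Prpf38a, Sf3b4 and Sf3b5. The 3 RIPs share the same Input libraries, so these counts are not independent of each other. Of these 16 members, 13 kept all their calls when each library was left out, and the exceptions were Prpf38a, Prpf4b and Snrpg. Those that also kept all calls under the other alternatives were 6, namely Prpf8 as enriched and Lsm1, Snrpb2, Snrpd3, Sf3b4 and Sf3b5 as depleted. 5 members were called in no RIP (Lsm11, Lsm14a, Lsm14b, Sf3a1 and Sf3a3).

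Library by library, the median log2 ratio of the ring subunits to the mean of Input lay between -2.06 and -0.70 in the 9 RIP libraries and between -0.22 and 0.31 in Input, so the groups did not overlap. The factors lay between 0.01 and 0.47 in the RIP libraries and between -0.04 and 0.04 in Input, where YTHDF1 RIP replicate 1 at 0.01 fell within the range of Input. Ring subunits stood below factors in all 9 RIP libraries, by 0.96 to 2.12. YTHDF1 RIP replicate 2 stood nearer to Input for the rings (-0.82) than replicates 1 and 3 (-1.71 and -2.06). In Input itself, the ring median was lowest in replicate 1 and highest in replicate 3, the same libraries that were lowest and highest in astrocyte markers. In the YTHDF3 RIP, replicate 1 was also lowest and replicate 3 highest in these markers, but the ring medians were -1.55, -1.89 and -1.75 in replicates 1, 2 and 3. The part of these cells was not tested.

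**Figure D1:**
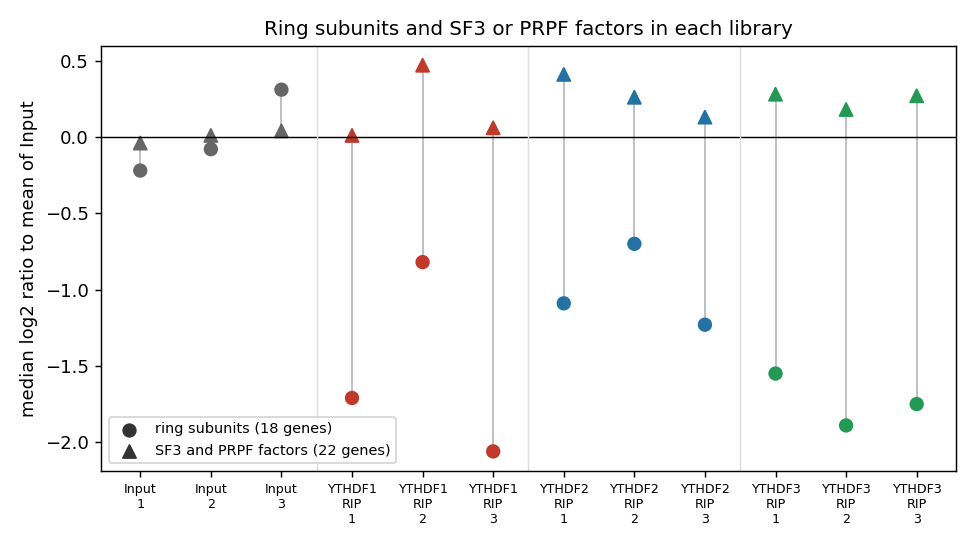
Median log2 ratio to the mean of Input (y axis) of the 18 ring subunits (circles) and the 22 SF3 and PRPF factors (triangles) in each of the 12 libraries (x axis). In every RIP library the circle lies below the triangle, with the smallest gap of 0.96 in YTHDF2 RIP replicate 2 and the largest of 2.12 in YTHDF1 RIP replicate 3. The heights move with the scaling of the libraries, and the gap within a library does not.

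The Sm subunits (Snrpb, Snrpn, Snrpd1, Snrpd2, Snrpd3, Snrpe, Snrpf and Snrpg) had median log2 ratios of -1.74 (YTHDF1), -1.23 (YTHDF2) and -1.97 (YTHDF3). All 8 were depleted in the YTHDF3 RIP, 7 of 8 in the YTHDF1 RIP (Snrpn was not) and 5 of 8 in the YTHDF2 RIP. These shares were 100%, 87.5% and 62.5%, against 23.0%, 25.8% and 19.0% of all genes. Snrpf (chr10:93583029-93589706, minus strand) was at 17.2, 25.1 and 33.4 CPM in Input, 2.54, 6.28 and 2.47 CPM in the YTHDF1 RIP, 10.1, 18.4 and 12.6 CPM in the YTHDF2 RIP, and 4.63, 3.22 and 3.64 CPM in the YTHDF3 RIP. All 6 libraries of the YTHDF1 and YTHDF3 RIPs lay below Input, while the YTHDF2 RIP overlapped it. The log2 ratio was -2.74 ± 0.40 (adjusted p = 0.000202) for YTHDF1 and -2.72 ± 0.40 (adjusted p = 0.000295) for YTHDF3, a 6.69-fold and a 6.58-fold depletion, but -0.88 ± 0.38 for YTHDF2, which did not pass (adjusted p = 0.091).

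Snrpe (chr1:133603871-133610291, minus strand) was at 7.69, 8.13 and 14.6 CPM in Input and fell to 1.61, 3.42 and 1.41 CPM in the YTHDF1 RIP, 2.53, 3.43 and 2.91 CPM in the YTHDF2 RIP, and 1.21, 1.26 and 1.22 CPM in the YTHDF3 RIP. Every RIP library lay below every Input library, and the log2 ratios were -2.23 ± 0.37, -1.77 ± 0.37 and -3.03 ± 0.38. The lowest count behind these values was 14 reads. Snrpd3 (chr10:75517551-75537381, plus strand) gave 27.9, 24.4 and 34.5 CPM in Input, 5.53, 11.5 and 4.71 CPM in the YTHDF1 RIP, 9.44, 9.56 and 8.16 CPM in the YTHDF2 RIP, and 6.96, 5.33 and 6.85 CPM in the YTHDF3 RIP. It too was below Input in all 9 libraries, with log2 ratios of -2.0 ± 0.31, -1.68 ± 0.31 and -2.18 ± 0.31, and it was depleted in every RIP under every alternative run.

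Snrpd2 was at 22, 22.1 and 32.2 CPM in Input, 5.88, 14.0 and 2.83 CPM in the YTHDF1 RIP, 12.6, 16.1 and 9.94 CPM in the YTHDF2 RIP, and 4.47, 3.22 and 4.46 CPM in the YTHDF3 RIP. No RIP library reached the lowest Input library, yet only the YTHDF1 (-1.76 ± 0.46) and YTHDF3 (-2.65 ± 0.47) ratios passed, and YTHDF2 gave -0.98 ± 0.45 (adjusted p = 0.113). Snrpd1 was at 12.6, 14.1 and 19.1 CPM in Input, 4.61, 11.6 and 6.20 CPM in the YTHDF1 RIP, 10.6, 11.2 and 8.60 CPM in the YTHDF2 RIP, and 5.33, 5.48 and 5.72 CPM in the YTHDF3 RIP. Its groups did not overlap Input either, with depletion in the YTHDF1 RIP (-1.02 ± 0.30, lost without YTHDF1 RIP replicate 3 at -0.89 and adjusted p = 0.0565) and the YTHDF3 RIP (-1.46 ± 0.30), and -0.58 ± 0.30 in the YTHDF2 RIP (adjusted p = 0.157). Snrpg had the thinnest Sm counts, with 4.41, 5.49 and 7.82 CPM in Input, 0.922, 3.42 and 0.979 CPM in the YTHDF1 RIP, 1.86, 2.84 and 1.34 CPM in the YTHDF2 RIP, and 2.37, 1.55 and 1.98 CPM in the YTHDF3 RIP. All its RIP libraries were below Input and the log2 ratios were -1.72 ± 0.49, -1.56 ± 0.51 and -1.58 ± 0.48. The YTHDF2 call was lost without Input replicate 2 or 3 or YTHDF2 RIP replicate 1 or 3 (adjusted p = 0.0635 to 0.115), and the YTHDF3 call without Input replicate 3 or YTHDF3 RIP replicate 2 or 3 (0.0589 to 0.0887).

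Snrpb and Snrpn, the SmB and SmN pair shown above, stood at different levels, and in the YTHDF1 RIP only Snrpb passed. Per kilobase of the principal mRNA, Input held 30.8 ± 5.46 CPM of Snrpb and 158 ± 46.5 CPM of Snrpn (SD, n = 3), the highest level per kilobase of the 47 members. Gm38393, which shares exonic bases with Snrpn, held 84566 counts over the 12 libraries against 33746 for Snrpn. The level of Snrpn may therefore include reads of that gene. Snrpb fell from 29.2, 36.1 and 41.9 CPM in Input to 10.5, 14.2 and 10.8 CPM in the YTHDF1 RIP, 16.6, 20.0 and 14.0 CPM in the YTHDF2 RIP, and 12.2, 8.92 and 10.5 CPM in the YTHDF3 RIP, with no overlap with Input. Its log2 ratios were -1.59 ± 0.22, -1.08 ± 0.22 and -1.76 ± 0.22. Snrpn was at 400, 297 and 221 CPM in Input, 145, 263 and 223 CPM in the YTHDF1 RIP, 121, 95.7 and 135 CPM in the YTHDF2 RIP, and 154, 79.4 and 80.6 CPM in the YTHDF3 RIP. Only its YTHDF1 RIP libraries overlapped Input (-0.54 ± 0.32, adjusted p = 0.178), while YTHDF2 (-1.38 ± 0.33) and YTHDF3 (-1.55 ± 0.33) passed. Whether the pair differed in the YTHDF1 RIP was not tested.

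The LSm ring subunits (Lsm1 to Lsm8) were all depleted in the YTHDF3 RIP, and 7 of 8 were in the YTHDF1 RIP. Only Lsm1 and Lsm3 were depleted in the YTHDF2 RIP, where the 8 had a median log2 ratio of -1.03. Lsm1 (chr8:25785288-25803975, plus strand), which sets the cytoplasmic decapping ring apart from the nuclear one, was at 10.7, 11 and 12.5 CPM in Input. It was at 2.19, 4.85 and 3.01 CPM in the YTHDF1 RIP, 1.99, 3.14 and 4.47 CPM in the YTHDF2 RIP, and 5.09, 5.11 and 4.53 CPM in the YTHDF3 RIP. Every RIP library was below every Input library, the log2 ratios were -1.76 ± 0.32, -1.82 ± 0.33 and -1.21 ± 0.31, and the calls were kept under every alternative run. Its nuclear counterpart Lsm8 was depleted in the YTHDF3 RIP (-1.48 ± 0.37) and at -0.14 ± 0.37 in the YTHDF2 RIP. In the YTHDF1 RIP Lsm8 lay at the edge of the call (-0.89 ± 0.37, adjusted p = 0.0601). It passed there as depleted in 9 of 12 other alternatives, among them the replicate block (-0.99, adjusted p = 0.047) and library size alone (-1.33, adjusted p = 0.0106), and without YTHDF1 RIP replicate 2 (-1.60, adjusted p = 0.000685), but was at 0.46 with the mRNA length trend removed.

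Lsm2 was among the members with the fewest reads (10 to 59 a library), at 3.12, 3.22 and 5.68 CPM in Input, 1.15, 2.14 and 0.761 CPM in the YTHDF1 RIP, 1.73, 1.64 and 1.34 CPM in the YTHDF2 RIP, and 0.70, 1.04 and 1.95 CPM in the YTHDF3 RIP. Each RIP library was below each Input library. Its log2 ratios of -1.57 ± 0.47 and -1.68 ± 0.46 passed for YTHDF1 and YTHDF3 and -1.34 ± 0.49 did not for YTHDF2 (adjusted p = 0.0508), and the calls depended on single libraries (lost without YTHDF1 RIP replicate 3 at adjusted p = 0.0621, and without Input replicate 3 or YTHDF3 RIP replicate 2 at 0.0642 and 0.0608). The YTHDF2 value passed without YTHDF1 RIP replicate 2 or 3 or YTHDF3 RIP replicate 1 or 3 (0.0307 to 0.0425). Lsm5, with 7 to 91 reads a library, was called in the YTHDF1 and YTHDF3 RIPs (-1.90 ± 0.60 and -1.87 ± 0.58), and lost its call in the YTHDF1 RIP without Input replicate 2 or YTHDF1 RIP replicate 1 or 3 (0.0504 to 0.0593) and in the YTHDF3 RIP without Input replicate 2 or 3 or YTHDF3 RIP replicate 2 or 3 (0.0505 to 0.0848). Lsm3 was depleted in every RIP (-1.49 ± 0.40, -1.65 ± 0.41 and -1.97 ± 0.40), and Lsm6 in the YTHDF1 and YTHDF3 RIPs (-1.53 ± 0.37 and -1.39 ± 0.37). Lsm7 is the LSm member most exposed to shared reads. A pseudogene-like copy, Gm10146, held 1230 counts over the 12 libraries against 2259 for Lsm7, and reads that align to both were counted for both. The same limit applies to other members, among them Snrpg (229 counts for Gm8186 against 497) and Sf3b4 (986 for Gm7935 against 2533). It also applies to Snrpa1 (652 for Gm45213 against 1659) and Snrpf (523 for Gm13092 against 1687).

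The U7 subunits replace a pair of Sm proteins in the particle that trims histone pre-mRNAs, and a difference between them was not tested. Neither passed in the YTHDF1 RIP, where Lsm10 was at -0.59 ± 0.29 (adjusted p = 0.109). Lsm10 was depleted in the YTHDF3 RIP (-1.47 ± 0.29) and in the YTHDF2 RIP (-0.89 ± 0.30, adjusted p = 0.0394), and the latter call was lost with the replicate block (adjusted p = 0.0624) and without any one of the 3 Input libraries, YTHDF2 RIP replicates 1 and 3, and YTHDF3 RIP replicates 2 and 3 (0.0562 to 0.128). Lsm11 (chr11:45928269-45944935, minus strand) was the only ring subunit called in no RIP, although it passed as depleted in 6 of 12 other alternatives in the YTHDF2 RIP (-1.18 to -0.65 over the 12) and in 3 of 12 in the YTHDF1 RIP (-1.46 to -0.38). It was at 151, 101 and 123 CPM in Input, 52.6, 98.5 and 140 CPM in the YTHDF1 RIP, 68.9, 73.8 and 85.7 CPM in the YTHDF2 RIP, and 168, 126 and 109 CPM in the YTHDF3 RIP. The YTHDF2 RIP lay below Input and the other RIPs overlapped it, with log2 ratios of -0.36 ± 0.31, -0.72 ± 0.31 (adjusted p = 0.0962) and 0.11 ± 0.31. Its mRNA of 6453 bases is the longest of the ring subunits, and stretches of it match 16 other genes at 95% identity or more, so its counts may include reads of other transcripts.

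Among the 7 other members, the proteins specific to U1 (Snrpa, Snrpc) and U2 (Snrpa1, Snrpb2) were all depleted in the YTHDF1 RIP. Snrpc and Snrpb2 were depleted in every RIP, with log2 ratios of -1.86 ± 0.29, -1.45 ± 0.29 and -2.30 ± 0.29 for Snrpc and -1.25 ± 0.26, -1.33 ± 0.27 and -1.88 ± 0.26 for Snrpb2. Snrpa and Snrpa1 passed only in the YTHDF1 RIP (-1.29 ± 0.28 and -0.64 ± 0.21, the latter lost without YTHDF1 RIP replicate 1 or 3 at adjusted p = 0.0752 and 0.0557). Lsm14a and Lsm14b, LSm-domain proteins of cytoplasmic mRNA granules rather than of the ring, were called in no RIP. Lsm14a was at 32.5, 43.0 and 44.9 CPM in Input, 31.6, 39.0 and 24.9 CPM in the YTHDF1 RIP, 43.2, 46.4 and 30.4 CPM in the YTHDF2 RIP, and 33.7, 37.2 and 41.7 CPM in the YTHDF3 RIP. All its groups overlapped, and the log2 ratios were -0.34 ± 0.22, -0.01 ± 0.22 and -0.10 ± 0.22.

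Lsm12 (chr11:102162497-102185296, minus strand), an LSm-domain protein that binds ataxin-2, was the member that differed most between the RIPs. It was at 40.4, 40.5 and 48.6 CPM in Input and 33.9, 103 and 46.9 CPM in the YTHDF1 RIP, but at 10.6, 9.41 and 14.1 CPM in the YTHDF2 RIP and 8.75, 7.14 and 8.43 CPM in the YTHDF3 RIP. The YTHDF1 RIP overlapped Input, and the other RIPs lay wholly below both. Against Input the log2 ratio was 0.51 ± 0.34 for YTHDF1 (adjusted p = 0.224), -1.92 ± 0.35 for YTHDF2 (adjusted p = 0.00197) and -2.41 ± 0.35 for YTHDF3 (adjusted p = 0.000316). The YTHDF1 value followed replicate 2, since it was -0.16 at its lowest and 0.80 at its highest (enriched, adjusted p = 0.0453, without YTHDF1 RIP replicate 1) when 1 library was left out.

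**Figure D2:**
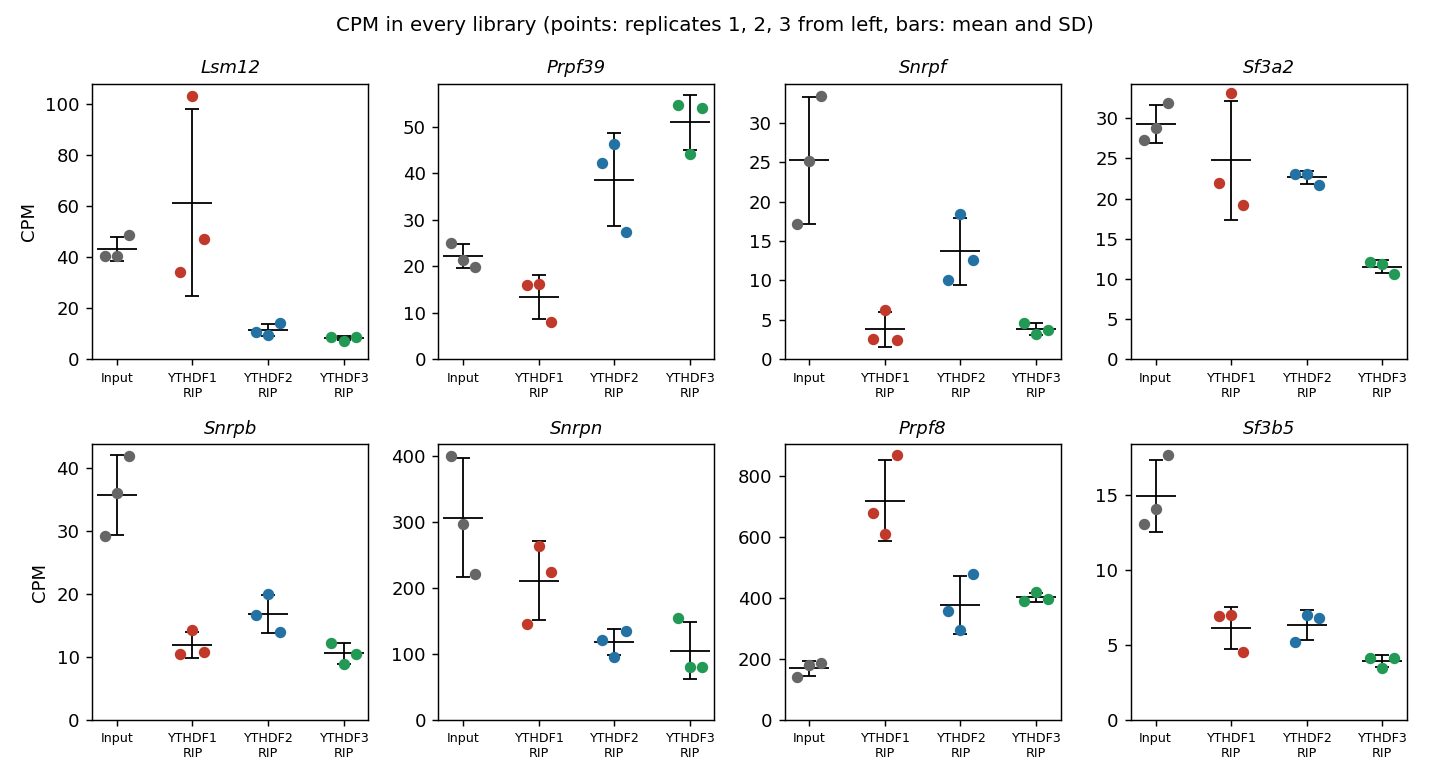
CPM (y axis, linear from 0) in each library of Input and the 3 RIPs for 8 members. Points are replicates 1, 2 and 3 from left to right, and bars are the mean and SD of 3. Lsm12 overlaps Input in the YTHDF1 RIP only, where replicate 2 lies above every Input library. Prpf39 is below Input in the YTHDF1 RIP and above it in the others, and Prpf8 is above Input in all 9 RIP libraries.

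The SF3 complexes, which hold the branch point in the U2 particle, held both enriched and depleted subunits. Over the SF3A and SF3B subunits, 33.3%, 22.2% and 22.2% were enriched in the 3 RIPs, against 27.2%, 15.7% and 16.4% of all genes. Depleted were 33.3%, 22.2% and 33.3%, against 25.8%, 19.0% and 23.0%, so these shares lay near those of all genes. SF3B gave 3 enriched and 3 depleted subunits of 6 in the YTHDF1 RIP, and 2 and 2 in each of the YTHDF2 and YTHDF3 RIPs. Sf3b1 (chr1:54985169-55027481, minus strand), the large scaffold next to the branch point, rose from 133, 139 and 142 CPM in Input to 306, 457 and 319 CPM in the YTHDF1 RIP, 312, 285 and 262 CPM in the YTHDF2 RIP, and 305, 288 and 300 CPM in the YTHDF3 RIP. All 9 RIP libraries were above Input, with log2 ratios of 1.38 ± 0.18, 1.05 ± 0.18 and 1.11 ± 0.18. Sf3b3, another large scaffold, gave 57.6, 61.7 and 64.9 CPM in Input, 135, 160 and 138 CPM in the YTHDF1 RIP, 113, 119 and 101 CPM in the YTHDF2 RIP, and 105, 95.5 and 106 CPM in the YTHDF3 RIP. It was likewise above Input throughout, at 1.23 ± 0.15, 0.85 ± 0.15 and 0.73 ± 0.15. Sf3b2 was enriched in the YTHDF1 RIP (1.23 ± 0.16) and not in the others (0.36 ± 0.15 and 0.38 ± 0.15).

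The small SF3B subunits went the other way. Sf3b5 (chr10:13005343-13009183, plus strand) was at 13.1, 14.1 and 17.7 CPM in Input, 6.92, 6.99 and 4.50 CPM in the YTHDF1 RIP, 5.19, 7.02 and 6.82 CPM in the YTHDF2 RIP, and 4.16, 3.44 and 4.13 CPM in the YTHDF3 RIP. Sf3b4, an RNA-binding subunit, was at 21.2, 23.4 and 25.0 CPM in Input, 10.5, 15.9 and 10.8 CPM in the YTHDF1 RIP, 9.17, 13.3 and 11.2 CPM in the YTHDF2 RIP, and 11.1, 9.03 and 9.99 CPM in the YTHDF3 RIP. For both genes every RIP library was below every Input library, and both were depleted under every alternative run, with log2 ratios of -1.29 ± 0.23, -1.23 ± 0.24 and -1.93 ± 0.23 for Sf3b5 and -0.90 ± 0.21, -1.05 ± 0.21 and -1.21 ± 0.21 for Sf3b4. Sf3b5 stands on a single exon and its annotated mRNA runs to 3841 bases, of which 261 are coding, so its length class rests on the annotation. Sf3b6, the small subunit that contacts the branch-point adenosine, passed in the YTHDF1 RIP (-1.57 ± 0.44).

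SF3A gave 0, 0 and 1 called subunits of 3 in the YTHDF1, YTHDF2 and YTHDF3 RIPs, with median log2 ratios of 0.04, -0.06 and -0.43. Sf3a1 was at 82.3, 91.9 and 90.3 CPM in Input, 110, 129 and 105 CPM in the YTHDF1 RIP, 94.0, 85.9 and 74.6 CPM in the YTHDF2 RIP, and 77.3, 65.9 and 74.4 CPM in the YTHDF3 RIP. The YTHDF1 RIP lay above Input and the YTHDF3 RIP below it, yet the log2 ratios of 0.37 ± 0.15, -0.06 ± 0.15 and -0.28 ± 0.15 did not pass (adjusted p = 0.0596, 0.801 and 0.172). Sf3a3 was called in none, and Sf3a2 was depleted in the YTHDF3 RIP only (-1.34 ± 0.20).

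Of the 13 PRPF factors, 6, 8 and 5 were enriched in the YTHDF1, YTHDF2 and YTHDF3 RIPs and 2, 2 and 3 were depleted. The enriched shares were 46.2%, 61.5% and 38.5%, against 27.2%, 15.7% and 16.4% of all genes. The depleted shares were 15.4%, 15.4% and 23.1%, against 25.8%, 19.0% and 23.0%. Prpf8 (chr11:75486816-75509449, plus strand), the scaffold of the catalytic centre in the U5 particle, had the highest ratio of all members in each RIP. It rose from 141, 180 and 186 CPM in Input to 679, 609 and 867 CPM in the YTHDF1 RIP, 356, 295 and 479 CPM in the YTHDF2 RIP, and 389, 418 and 397 CPM in the YTHDF3 RIP. None of the RIP libraries overlapped Input, the log2 ratio in the YTHDF1 RIP was 2.09 ± 0.23 (4.25-fold, adjusted p = 3.17e-05), the YTHDF2 and YTHDF3 RIPs were 2.23-fold and 2.37-fold above Input (adjusted p = 0.00236 and 0.00104), and Prpf8 was the 1 member enriched in all 3 RIPs under every alternative run.

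Prpf4b, a kinase that acts on the tri-snRNP, was at 77.0, 79.2 and 69.8 CPM in Input, 104, 147 and 102 CPM in the YTHDF1 RIP, 159, 137 and 117 CPM in the YTHDF2 RIP, and 151, 140 and 155 CPM in the YTHDF3 RIP. All RIP libraries were above Input, at 0.64 ± 0.19, 0.87 ± 0.19 and 0.98 ± 0.19. The YTHDF1 call was lost without Input replicate 3 (0.48, adjusted p = 0.0825) or YTHDF1 RIP replicate 2 (0.38, adjusted p = 0.0736), and with the length trend of each library removed the value was -0.05. Prpf4, a protein of U4/U6, was enriched at 0.69 ± 0.15, 0.76 ± 0.15 and 0.92 ± 0.15. Its calls were kept with each library left out but in only 5, 10 and 11 of 12 other alternatives, and the YTHDF1 value was 0.29 by library size alone and -0.09 with the mRNA length trend removed. Prpf6, a bridge between U5 and U4/U6, was enriched in the YTHDF1 and YTHDF2 RIPs (1.22 ± 0.15 and 0.65 ± 0.15).

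Prpf39 (chr12:65036333-65063386, plus strand), a U1-associated factor, was the 1 member called in opposite directions. It was at 25.0, 21.4 and 19.9 CPM in Input, 15.9, 16.2 and 7.90 CPM in the YTHDF1 RIP, 42.1, 46.3 and 27.4 CPM in the YTHDF2 RIP, and 54.7, 44.1 and 53.9 CPM in the YTHDF3 RIP. The YTHDF1 RIP lay wholly below Input and the others wholly above it. The YTHDF3 ratio (1.2 ± 0.28, adjusted p = 0.00527) was kept with each library left out, while the YTHDF1 (-0.74 ± 0.28) and YTHDF2 (0.80 ± 0.28) ratios, both at adjusted p = 0.0439, were kept in 5 and 4 of the 12 such fits. Both were lost without Input replicate 1 or 2, YTHDF2 RIP replicate 1 or any YTHDF3 RIP replicate. The YTHDF1 call was also lost without YTHDF1 RIP replicate 3, and the YTHDF2 call without Input replicate 3 or YTHDF2 RIP replicate 2 (adjusted p = 0.0538 to 0.14 over these fits). Of the factors depleted in part, Prpf38a passed in every RIP (-0.99 ± 0.24, -0.77 ± 0.24 and -0.98 ± 0.23), with the YTHDF2 call lost without Input replicate 2 or 3 or YTHDF2 RIP replicate 2 or 3 (0.0597 to 0.0928). Prpf19, the ubiquitin ligase of the activating complex, passed in the YTHDF2 and YTHDF3 RIPs (-0.54 ± 0.18 and -0.53 ± 0.18), and each call was kept in 7 of the 12 fits without 1 library. Both were lost without any one of the Input libraries, the YTHDF2 call also without YTHDF2 RIP replicate 1 or 2, and the YTHDF3 call also without YTHDF3 RIP replicate 2 or 3 (0.0512 to 0.113). Prpf31, a protein of U4/U6, passed in the YTHDF3 RIP (-0.56 ± 0.19), a call lost with the replicate block (adjusted p = 0.0543) and without any one of the 3 Input libraries, the 3 YTHDF3 RIP libraries and YTHDF2 RIP replicate 1 (0.0522 to 0.161).

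Other PRPF factors were enriched in single RIPs or in a pair of them. Prpf40b, a U1-associated factor, was enriched in the YTHDF1 and YTHDF2 RIPs (0.69 ± 0.15 and 0.65 ± 0.15). Prpf18, which acts in the later catalytic step, and Prpf3, a protein of U4/U6, were enriched in the YTHDF2 RIP (0.56 ± 0.18 and 0.67 ± 0.23), and Prpf38b in the YTHDF3 RIP (0.57 ± 0.20). These 3 calls lay near the threshold (adjusted p = 0.0345, 0.0418 and 0.0412 for Prpf18, Prpf3 and Prpf38b). With 1 library left out, their log2 ratios stayed at 0.38 to 0.69, 0.52 to 0.80 and 0.52 to 0.67, but the calls were often lost. Without any one of the Input libraries all 3 were lost (adjusted p = 0.0536 to 0.129). The call was also lost without YTHDF2 RIP replicate 1 or 2 for Prpf18 (0.154 and 0.0604), without YTHDF2 RIP replicate 1 or 2 or any YTHDF3 RIP replicate for Prpf3 (0.0532 to 0.15), and without YTHDF2 RIP replicate 1 or 2 or any YTHDF3 RIP replicate for Prpf38b (0.0536 to 0.105).

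The study's methods pair each RIP with the Input of its replicate, and a fit of the groups of a comparison alone with the replicate block changed some counts. In the YTHDF3 RIP it gave 13 enriched members in place of 7 and 30 depleted in place of 26, which is 27.7% and 63.8% of the members. Over all genes the same fit called 36.3% enriched and 32.2% depleted in place of 16.4% and 23.0%, so the gain was general and the enriched share of the members lay below that of all genes. The members gained as enriched included Prpf3, Prpf6, Prpf40b, Sf3b2 and Lsm14b, at log2 ratios of 0.34 to 0.43, and those gained as depleted were Sf3a3, Sf3b6, Snrpa and Snrpa1, at -0.65 to -0.37. In the YTHDF1 RIP that fit gave 5 enriched members in place of 9, a fall from 19.1% to 10.6% of the members where all genes went from 27.2% to 14.0%. In replicates 2 and 3 the YTHDF1 and YTHDF2 libraries deviated from their group means in the opposite direction to Input of the same number, so for these RIPs the block against Input rests on the stated pairing alone.

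RIPs were also compared directly, with a call at 2-fold or more. Against the YTHDF2 RIP, the YTHDF1 RIP was higher for 1 member and lower for 2 (11.4% and 6.10% of all genes). Against the YTHDF3 RIP it was higher for 3 and lower for 1 (10.8% and 3.63%). The YTHDF2 RIP was higher than the YTHDF3 RIP for 5 members and lower for 0 (3.95% and 1.16%), where 2 were lower at an unadjusted p below 0.05 and DESeq2 called 0. The single member above both other RIPs in the YTHDF1 RIP was Lsm12, by 2.43 ± 0.36 over YTHDF2 (5.38-fold, adjusted p = 0.000542) and 2.92 ± 0.36 over YTHDF3 (7.57-fold, adjusted p = 0.000306), and the single member below both was Prpf39, by -1.54 ± 0.29 and -1.94 ± 0.29. Those 4 calls were kept with each library left out and under the 12 other alternatives, with ranges of 1.77 to 2.72 and 2.15 to 3.21 for Lsm12, and -2.14 to -1.26 and -2.65 to -1.66 for Prpf39.

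Snrpf was lower in the YTHDF1 than in the YTHDF2 RIP (-1.86 ± 0.40, kept throughout) and higher in the YTHDF2 than in the YTHDF3 RIP (1.84 ± 0.39, adjusted p = 0.0194). Lsm4, Lsm7, Lsm8 and Snrpd2 were also higher in the YTHDF2 than in the YTHDF3 RIP, and all 5 of these members were ring subunits. All 5 have mRNAs under 1500 bases, a length at which 29.4% of 17 members and 10.7% of 1892 protein-coding genes were called higher. The median log2 difference was 0.51 for those protein-coding genes and 0.60 for the ring subunits. Lsm4 was at 7.99, 12.7 and 20.5 CPM in Input, 9.31, 12.8 and 7.82 CPM in the YTHDF2 RIP, and 2.92, 2.92 and 3.51 CPM in the YTHDF3 RIP, a log2 difference of 1.67 ± 0.41 (adjusted p = 0.0335). None of the 5 calls held throughout, since the count was 0 without YTHDF2 RIP replicate 2 or without YTHDF3 RIP replicate 2 or 3, 1 or 2 without any other library of Input or of these RIPs, 2 with the replicate block over all libraries and 0 with the block in these groups alone. With the block in the groups compared alone, the count of members that differed was 6 in place of 3 between the YTHDF1 and YTHDF2 RIPs, where all genes stood at 18.3% in place of 17.5%. It was 2 in place of 4 between the YTHDF1 and YTHDF3 RIPs, where all genes fell to 2.45% from 14.5%, and the count of 0 between the YTHDF2 and YTHDF3 RIPs went with 2.29% in place of 5.10%. Between the YTHDF1 and YTHDF3 RIPs, Sf3a2 was at 21.9, 33.2 and 19.2 CPM against 12.1, 11.9 and 10.6 CPM without overlap (1.1 ± 0.20), a difference that fell under 2-fold without YTHDF1 RIP replicate 2 (0.71) or Input replicate 3 (0.94) and was kept in 4 of 12 other alternatives. Snrpn (1.01 ± 0.32, adjusted p = 0.0453) was called although the libraries overlapped, and lost the call in 9 of the 12 fits without 1 library (adjusted p = 0.0543 to 0.17), all but those without Input replicate 1, YTHDF1 RIP replicate 1 or YTHDF3 RIP replicate 1. It was kept in 0 of 12 other alternatives (0.28 to 1.07). Without YTHDF1 RIP replicate 2, 12 members differed between the YTHDF1 and YTHDF2 RIPs in place of 3, of which 11 were lower in the YTHDF1 RIP (23.4% of the members), 7 of them ring subunits. Lower calls over all genes also rose, from 6.10% to 11.5%.

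The classes differed in median mRNA length, though their ranges overlapped, and lengths were taken from the principal transcript of each gene in GENCODE M21. The ring subunits had a median length of 934 bases (468 to 6453), the factors 3265 bases (1180 to 7844), and the 13418 protein-coding genes with a length 3122 bases. Over the 47 members, Spearman's rho between log2 ratio and length was 0.696 for YTHDF1, 0.596 for YTHDF2 and 0.733 for YTHDF3, and over the protein-coding genes 0.603, 0.41 and 0.613. These are correlations across genes of the same libraries and are given as a description. Within the 18 ring subunits rho was 0.125, -0.127 and 0.393, and within the 22 factors 0.624, 0.679 and 0.706.

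**Figure D3:**
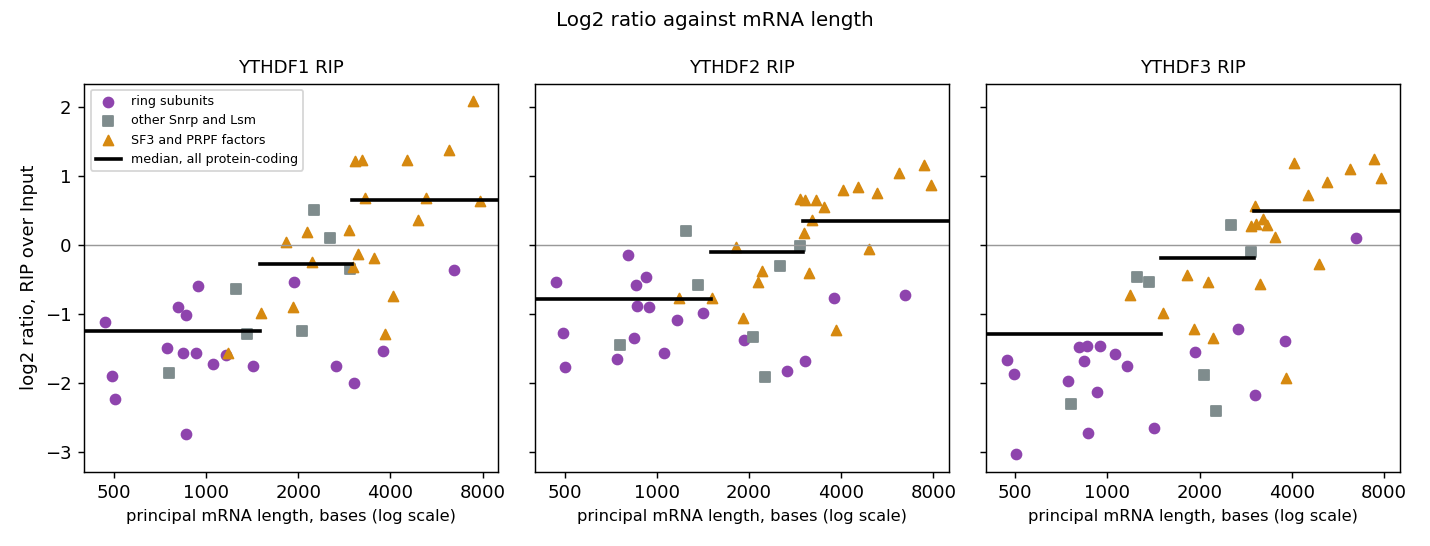
Log2 ratio of each RIP over Input (y axis) against the length of the principal mRNA (x axis, log scale) for ring subunits, other Snrp and Lsm genes, and SF3 and PRPF factors. Black lines are medians of all protein-coding genes tested in 3 length classes, at -1.25, -0.27 and 0.66 in the YTHDF1 RIP. Ring subunits with long mRNAs (Lsm1, Lsm6, Snrpd3) lie below the line of their class in each panel.

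The members were then set beside all protein-coding genes of like length. Among the 17 members under 1500 bases, 15, 6 and 14 were depleted in the YTHDF1, YTHDF2 and YTHDF3 RIPs (88.2%, 35.3% and 82.4%), where the 1892 protein-coding genes of that length had 64.1%, 41.5% and 60.9%. Their median log2 ratios were -1.57, -0.89 and -1.68 against -1.25, -0.78 and -1.29. Among the 18 members of at least 3000 bases, 9, 9 and 7 were enriched (50%, 50% and 38.9%) against 45.8%, 25.7% and 31% of 7051 genes. The same 18 held 4, 2 and 4 depleted members (22.2%, 11.1% and 22.2%), against 8.55%, 8.13% and 5.19%. In the YTHDF1 RIP these were Lsm6, Snrpd3, Sf3b5 and Prpf39.

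With the trend of mRNA length removed within protein-coding genes, an alternative chosen after the data were seen, the median of the ring subunits was -0.53, -0.47 and -0.58 and that of the factors -0.11, 0.22 and 0.21. In that fit 8, 4 and 8 ring subunits were depleted, Lsm7 and Lsm8 were enriched in the YTHDF2 RIP (0.54 and 0.83), Lsm11 was depleted in the YTHDF1 and YTHDF2 RIPs (-1.46 and -1.18), and Snrpd1 turned to 0.35 (YTHDF1) and 0.13 (YTHDF3) without passing. Other depleted values that turned positive without passing were those of Lsm7 (0.36 for YTHDF1 and 0.47 for YTHDF3), Lsm8 and Lsm5 (0.20 and 0.26 for YTHDF3) and Snrpa1 (0.33 for YTHDF1), while Snrpa1 was enriched in the YTHDF2 and YTHDF3 RIPs (0.80 and 0.55). Prpf4b, enriched in the YTHDF1 RIP before, was depleted there (-0.62, adjusted p = 0.0357). Lsm1, with an mRNA of 2663 bases, Snrpd3 with 3036 bases and Sf3b4 and Sf3b5 stayed depleted in all 3 RIPs.

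The mRNAs were also searched for GGACT, a common core of m6A sites, on the sense strand. It was absent from 8 of the 18 ring mRNAs (44.4%), from 0 of the 22 factor mRNAs and from 8.05% of protein-coding genes. Per kilobase of summed mRNA the classes were closer, at 0.863 for the rings, 0.983 for the factors and 1.09 for protein-coding genes. The ring mRNAs without a match were those of Lsm3, Lsm4, Lsm5, Lsm7, Snrpd1, Snrpe, Snrpg and Snrpn. Sf3b1, enriched in every RIP, had 1 match in 6195 bases, and Prpf4 had 13 in 5223. A match is a run of letters and not a measured site.

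Genes that work with the members were taken from lists made by function, and are given by their counts. Of 56 other snRNP and spliceosome proteins, 22, 19 and 14 were enriched in the YTHDF1, YTHDF2 and YTHDF3 RIPs and 18, 6 and 15 depleted, with median log2 ratios of 0.08, 0.20 and 0.08. The enriched shares were 39.3%, 33.9% and 25%, against 27.2%, 15.7% and 16.4% of all genes, and the depleted shares 32.1%, 10.7% and 26.8%, against 25.8%, 19.0% and 23.0%. Snrnp200, the helicase that unwinds U4/U6, was highest in the YTHDF1 RIP (2.37 ± 0.16), and Snrnp25 of the minor spliceosome lowest (-2.41 ± 0.44). In the YTHDF2 RIP the ends were Snrnp48, also of the minor spliceosome (2.47 ± 0.31), and Cwc15 (-1.57 ± 0.28), and in the YTHDF3 RIP Srrm2, a large SR-related protein (1.44 ± 0.19), and Cwc15 (-2.39 ± 0.28). Of 12 members of the SMN complex and the methylosome, which load Sm rings onto snRNAs, 3, 2 and 3 were enriched and 6, 5 and 5 depleted. Their enriched shares (25%, 16.7% and 25%) were near those of all genes, and their depleted shares were 50%, 41.7% and 41.7%. Gemin4 was the highest in each RIP (1.86 ± 0.33, 1.24 ± 0.33 and 1.1 ± 0.32) and Gemin6 the lowest (-1.89 ± 0.37, -1.56 ± 0.38 and -1.37 ± 0.35).

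Of 8 proteins that decap mRNA with the Lsm1 ring, 5 were enriched in each RIP (62.5%, against 27.2%, 15.7% and 16.4% of all genes), with median log2 ratios of 1.60, 0.48 and 0.67, and Dcp1b was the 1 depleted, in the YTHDF1 RIP only (-0.56 ± 0.21, adjusted p = 0.0378). The helicase Ddx6 had 2.36 ± 0.17 for YTHDF1 and 1.00 ± 0.17 for YTHDF3, the highest of the list in both, and the decapping enzyme Dcp2 had 1.02 ± 0.23 in the YTHDF2 RIP. Patl1, which bridges the ring and the decapping enzymes, was lowest in the YTHDF2 and YTHDF3 RIPs without passing (-0.46 ± 0.26 and -0.01 ± 0.26). Of 7 proteins that process histone pre-mRNA with U7, 4, 3 and 2 were enriched (57.1%, 42.9% and 28.6%) and 0 depleted. Zfp473 was highest for YTHDF1 (1.93 ± 0.57) and for YTHDF2, where it did not pass (1.57 ± 0.60, adjusted p = 0.0607), and Casp8ap2 in the YTHDF3 RIP (1.31 ± 0.17). Slbp, the histone stem-loop binder, was lowest in the YTHDF1 and YTHDF2 RIPs (-0.39 ± 0.27 and -0.19 ± 0.27) and Sympk in the YTHDF3 RIP (0.14 ± 0.20), and none of these 3 values passed.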

How the data were processed

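RNA of 12 libraries was measured by RIP-seq. Libraries were made with a stranded total RNA kit with unique molecular identifiers. The authors deposited raw counts per gene. By the submitters' processing notes and the file header, identifiers were handled with UMI-tools 1.1.1, adapters removed with cutadapt 3.4, reads aligned to mm10 (GRCm38) with STAR 2.7.7a and exonic fragments counted by strand with featureCounts 2.0.1 on Ensembl 97. Fragments over several genes, or with several alignments, were counted for each, so near-identical genes share reads. The deposited tables of the authors' own DESeq2 comparisons hold mean normalised counts, log2 fold changes, statistics and p-values. None was used, and only gene identifier, name and biotype were read from the YTHDF1 table.

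Genes with a mean normalised count of at least 10 were kept (17126, of which 13508 protein-coding). All 12 libraries entered one edgeR 4.0.16 quasi-likelihood fit (R 4.3.3, TMM factors, biological coefficient of variation 0.323), with p-values adjusted by the Benjamini-Hochberg method over all genes at 0.05 and a fold of 1.25 against Input or 2 between RIPs. CPM of members are counts divided by library sizes scaled by TMM, times 1000000, and CPM of markers used the unscaled totals. Ratios by library used log2 CPM with a prior count of 2. The fit was run on simulated data with a smaller spread between replicates than these data have, so that run does not measure its error rate here. P-values set each difference against the spread between replicate libraries of a group. The fit took all libraries as independent, although lysates were shared among groups. Depth limits the members with few reads.

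Lengths, coding sequences and GGACT matches came from principal transcripts of GENCODE M21 (Biopython 1.88), copies from blastn 2.17.0 (at least 95% identity over 100 bases) and correlations from scipy 1.17.1. The alternatives were DESeq2 1.42.0 size factors and Wald test, library size alone, TMM over protein-coding genes, other filters, the groups compared alone, the replicate block, removal of a loess trend on length (span 0.3) and leaving out each library. The members, gene lists and tests were chosen with earlier results of these data known. Values in every library were given for 14 members chosen to cover the roles (1 member is counted but not reported here by itself), for the 3 highest and 3 lowest called members of each RIP, and for the 2 called members with the largest change in each direction between RIPs.

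Replicate numbers were taken to pair the libraries because, by the study's methods, each lysate was divided among the RIPs and its Input. Same-numbered deviations from group means correlated at 0.829, 0.528 and 0.804 between Input and the YTHDF3 RIP, but at 0.0907, -0.267 and -0.322 for YTHDF1 and 0.178, -0.323 and -0.313 for YTHDF2. Replicate 2 of the YTHDF1 and YTHDF2 RIPs correlated best with replicate 3 of Input (0.467 and 0.56) and of the YTHDF3 RIP (0.426 and 0.555). The pairing of YTHDF1 and YTHDF2 with Input and the YTHDF3 RIP is therefore not seen in these data, and those block results rest on the numbering. Between the YTHDF1 and YTHDF2 RIPs, same-numbered deviations correlated at 0.059, 0.544 and 0.348.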

Additional observations from a re-analysis of the deposited data

How the results depend on the processing

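Of the calls against Input, 71 of 90 were kept with each library left out and 36 under every alternative run. Ring subunits had a negative median in every RIP under every alternative run, and the factors kept a positive one except as given here. Leaving out 1 library gave, for the YTHDF1, YTHDF2 and YTHDF3 RIPs, 8 to 10, 7 to 10 and 6 to 8 enriched members, 18 to 26, 11 to 21 and 21 to 27 depleted members, ring medians of -2.13 to -1.29, -1.2 to -0.83 and -1.86 to -1.54, and factor medians of -0.01 to 0.29, 0.19 to 0.33 and 0.22 to 0.35. Between RIPs it gave 3 to 12 (YTHDF1 and YTHDF2), 3 to 6 (YTHDF1 and YTHDF3) and 0 to 6 (YTHDF2 and YTHDF3) different members. The highest count of 12 and the factor median of -0.01 came without YTHDF1 RIP replicate 2, and 5 members differed between the YTHDF1 and YTHDF2 RIPs without YTHDF1 RIP replicate 1.

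With library size alone, 5 (YTHDF1) and 12 (YTHDF3) members were enriched, 12, 9 and 3 differed between the RIPs, the factor medians were -0.21 (YTHDF1) and 0.62 (YTHDF3), and the ring median was -1.34 in the YTHDF3 RIP. With TMM over protein-coding genes the YTHDF1 factor median was -0.04, and 3 members differed between the YTHDF2 and YTHDF3 RIPs. Without a filter, 2 members were enriched in the YTHDF2 RIP, 5 differed between the YTHDF1 and YTHDF2 RIPs, and the YTHDF3 factor median was 0.42. With a minimum mean of 50, 2 differed between the YTHDF1 and YTHDF3 RIPs. The cause was not tested for any of these.

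With the exonic length trend removed, 3, 5 and 4 members were enriched, 2 differed between the YTHDF2 and YTHDF3 RIPs, the factor medians were -0.04, 0.11 and 0.00, the YTHDF3 ring median was -1.12, and Prpf4b was at -0.05 in the YTHDF1 RIP. With the replicate block as well, 3, 4 and 2 were enriched, 2 differed between the YTHDF2 and YTHDF3 RIPs, the factor medians were -0.05, 0.10 and 0.00, the YTHDF3 ring median was -1.13, and Prpf4b was at -0.06. With the mRNA length trend removed in protein-coding genes, chosen after seeing the data, 5 (YTHDF1) and 3 (YTHDF3) were enriched, 13, 8 and 15 depleted, and 1 differed between the YTHDF2 and YTHDF3 RIPs. The ring medians were then -0.53, -0.47 and -0.58, the factor medians -0.11 (YTHDF1) and 0.21 (YTHDF3), and in the YTHDF1 RIP Prpf4b was at -0.62 and Snrpd1 at 0.35, with Snrpd1 at 0.13 in the YTHDF3 RIP. These alternatives subtract the part of each ratio that follows length.

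With the replicate block over all libraries, 2 members differed between the YTHDF2 and YTHDF3 RIPs, and against Input it changed the calls of Lsm8, Lsm10 and Prpf31 named above. In the groups compared alone, the YTHDF3 factor median was 0.35 with and without the replicate block. With the block it gave 5 (YTHDF1) and 13 (YTHDF3) enriched members, and 6, 2 and 0 members that differed between RIPs, where all genes had 14.0% and 36.3% enriched and 18.3%, 2.45% and 2.29% different. Of the values for single genes and lists that were counted, 1558 kept their call or stayed short of the threshold, 99 lost a call and 36 gained one. A further 5 changed sign with a call on one side. This count does not take in every sign change of a called value given above, and 6 more reversals were counted apart, among the main results. Of the 1558, 24 changed sign without a call. Depth limits Lsm2, Lsm5, Lsm10, Snrpe and Snrpg, whose lowest counts were 10, 7, 13, 14 and 8 reads.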
